A study of Mus musculus with 6 samples.

Results

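Glutathione S-transferases are described here through 10 mouse genes, Gsta3, Gsta4, Gstm1, Gstm2, Gstm3, Gstm5, Gstm6, Gstp1, Gstt1 and Gsto1, out of 20007 gene identifiers measured in each library. The members were listed by symbol and found by their Entrez Gene numbers, and all 10 were present. They were chosen by their CPM in these same libraries across the 3 groups, so their levels and fold changes are given as a description, and no p-value is given for any of them. Expression was measured by RNA sequencing (BGISEQ-500, total RNA) in 6 libraries of KM strain mice, 2 for each of 3 groups. CiSCs were fibroblasts that were passaged and then treated with unnamed small molecules meant to turn them into Sertoli-like cells, and their labelled age is that of the embryos, 13.5 days post coitum. MSCs were cultured Sertoli cells, which nurse the germ cells inside the seminiferous tubule, from the testes of mice at postnatal day 60. MEFs were mouse embryonic fibroblasts of 13.5 days post coitum, and per the growth protocol some embryos may have been a day younger. No genetic modification is labelled in any group. No group of passaged fibroblasts without the compounds is labelled, so the 2 steps, passaging and treatment, cannot be told apart.

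Glutathione S-transferases are enzymes that join glutathione, the main small thiol of the cell, to electrophilic compounds, which makes them more soluble and readies them for export. The soluble enzymes fall into classes by sequence, among them alpha (Gsta), mu (Gstm), pi (Gstp), theta (Gstt) and omega (Gsto). Several of their genes are known targets of the oxidant-responsive transcription factor NRF2 and, in liver, of the aryl hydrocarbon receptor. In the testis, Sertoli and Leydig cells are known to contain glutathione S-transferases, and the mu class in particular has been described there.

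Members of a class resemble each other closely, which bears on how reads can be assigned to them. Coding sequences of Gstm1 and Gstm3 were identical at 89.5% of aligned bases, those of Gstm1 and Gstm2 at 86.0%, and pairs of mu members ranged from 69.7% to 89.5%. The same 60 coding bases are shown for the mu members, starting at coding base 301 of Gstm1, as an example of where these genes differ. Stretches in which their reads cannot be told apart are not shown. They were read from the GENCODE transcripts of GRCm38, on the coding strand, and capitals mark bases that differ from Gstm1.
Gstm1: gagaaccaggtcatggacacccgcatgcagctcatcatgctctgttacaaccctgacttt
Gstm2: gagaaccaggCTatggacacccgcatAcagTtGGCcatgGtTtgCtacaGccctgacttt
Gstm3: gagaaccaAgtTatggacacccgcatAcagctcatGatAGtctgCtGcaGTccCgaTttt
Gstm6: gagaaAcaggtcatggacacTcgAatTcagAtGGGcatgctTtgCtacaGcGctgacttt
Gstm5: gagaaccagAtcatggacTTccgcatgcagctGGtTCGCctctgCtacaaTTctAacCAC
In this stretch Gstm2 differed from Gstm1 at 11 bases, Gstm3 and Gstm6 each at 12 and Gstm5 at 16. Of all 50-base stretches of the Gstm1 transcript, 23.1% also occurred in a transcript of another gene, most often the pseudogene Gstm2-ps1. The share was 28.8% for Gstm3, 11.8% for Gstm6 and 9.36% for Gstm2. No stretch of Gstm5, Gsta3, Gsta4, Gstt1 or Gsto1 was shared, and their deposited counts were whole numbers in all 6 libraries. Counts of Gstm1, Gstm2 and Gstp1 were fractional in all 6 libraries, and the single values of these genes may depend on how shared reads were divided.

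The pi class is the closest case. The coding sequences of Gstp1 and its neighbour Gstp2 were identical at 98.1% of bases, and 62.3% of the 50-base stretches of the Gstp1 transcript also occurred in Gstp2. The first 60 coding bases hold the most differences between them, 6 in all, in capitals in the second line.
Gstp1: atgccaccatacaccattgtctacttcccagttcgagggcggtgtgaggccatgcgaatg
Gstp2: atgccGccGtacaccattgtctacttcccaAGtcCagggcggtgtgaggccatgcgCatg
Gstp2 held 0.390% and 0.200% of the summed Gstp1 and Gstp2 counts in the CiSC libraries, 1.89% and 1.52% in the MSC libraries and 0% in both MEF libraries. The sum of the pair is therefore close to Gstp1 alone in every library.

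Promoters were searched for 3 short motifs on both strands, in windows from 250 bases before to 50 bases after the start (RefSeq, GRCm38.p6). These were the antioxidant response element core bound by NRF2 (TGACNNNGC, in 12.4% of all 32851 promoter windows of the same length), the AP-1 site (TGANTCA, in 7.81%) and the dioxin response element core bound by the aryl hydrocarbon receptor (GCGTG, in 32.4%). Windows were found for 9 of the 10 members, all but Gsta4. An antioxidant response element core occurred in Gsta3 and Gstm5, an AP-1 site in Gstm5 and Gstp1, and GCGTG in Gstm1, Gstm5 and Gstp1. In Gstm5 a GCGTG on the opposite strand lies within the antioxidant response element core, and another overlaps the AP-1 site. None of the 3 motifs was found in the windows of Gstm2, Gstm3, Gstm6, Gstt1 or Gsto1. The 250 bases before the start are shown for Gsta3 and Gstm2, whose levels were far higher in MSCs than in the other groups, for Gstm5, whose level was similar in all groups, and for Gstp1, the leading member in CiSCs. Capitals mark the antioxidant response element core in Gsta3, in Gstm5 first the AP-1 site and then, nearer to the start, that core, and the AP-1 site in Gstp1.
Gsta3 promoter, chr1:21240335-21240584, plus strand: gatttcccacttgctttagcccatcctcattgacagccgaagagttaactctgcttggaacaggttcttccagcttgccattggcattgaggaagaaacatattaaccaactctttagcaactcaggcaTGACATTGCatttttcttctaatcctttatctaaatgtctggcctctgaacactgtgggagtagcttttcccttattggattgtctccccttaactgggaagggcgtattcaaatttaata
Gstm2 promoter, chr3:107986421-107986670, minus strand: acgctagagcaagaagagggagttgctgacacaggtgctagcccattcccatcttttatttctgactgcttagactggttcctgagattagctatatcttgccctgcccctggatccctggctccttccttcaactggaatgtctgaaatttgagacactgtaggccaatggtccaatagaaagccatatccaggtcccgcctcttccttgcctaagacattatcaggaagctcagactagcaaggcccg
Gstm5 promoter, chr3:107895604-107895853, plus strand: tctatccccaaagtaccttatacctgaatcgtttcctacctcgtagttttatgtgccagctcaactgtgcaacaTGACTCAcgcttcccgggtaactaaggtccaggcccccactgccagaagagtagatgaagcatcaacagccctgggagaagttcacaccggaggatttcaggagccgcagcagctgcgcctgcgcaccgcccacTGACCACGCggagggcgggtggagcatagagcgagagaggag
Gstp1 promoter, chr19:4037913-4038162, minus strand: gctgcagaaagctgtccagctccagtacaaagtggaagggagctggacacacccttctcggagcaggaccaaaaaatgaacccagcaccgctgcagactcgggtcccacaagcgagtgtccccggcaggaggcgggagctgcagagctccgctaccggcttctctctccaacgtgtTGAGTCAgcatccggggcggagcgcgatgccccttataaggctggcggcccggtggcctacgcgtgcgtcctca
The Gsta3 core lay 121 to 113 bases before the start, and the Gstp1 AP-1 site 74 to 68 bases before it. A match of letters is a description of the sequence only.

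Library totals ranged from 19294671 to 20418587 expected counts, estimates that can be fractional. Levels are CPM, in which counts are scaled to library size, and the error of a log2 fold change is its standard error. A gene without reads in both libraries of a group may still reach 0.0709 CPM in CiSCs, 0.0806 CPM in MSCs or 0.0769 CPM in MEFs, the level of 3 reads over the group, and such limits cover counting error only. Separate cultures or animals are not labelled for the 2 libraries in a group, so p-values measure only the spread between these libraries, which may be technical. A gene was called where its adjusted p was under 0.05 (edgeR quasi-likelihood test, Benjamini-Hochberg over all 15272 tested genes). The groups also differed in markers of other cell types. Summed levels of 11 macrophage and leukocyte markers, all with counts in every group, were 34.5 to 50.03 CPM in CiSCs, 1324 to 1403 CPM in MSCs and 11885 to 19350 CPM in MEFs. Summed levels of 10 Leydig cell markers were 11.3 to 12.3 CPM in CiSCs, 2185 to 2190 CPM in MSCs and 11.7 to 13.2 CPM in MEFs, with Insl3 and Nr5a1 among 5 markers without reads in CiSCs and Hsd17b3 without reads in any group. Summed levels of 7 endothelial markers were 12.6 to 14.9 CPM in CiSCs, 98.6 to 104 CPM in MSCs and 22.6 to 32.5 CPM in MEFs, and those of 6 germ cell markers were 2.11 to 2.56 CPM in CiSCs, 25.9 to 32.8 CPM in MSCs and 3.86 to 3.97 CPM in MEFs, with Tnp1 without reads in any group and Prm1 with reads in MSCs alone. For 15 Sertoli cell markers the sums were 4429 to 5163 CPM in CiSCs, 6318 to 9299 CPM in MSCs and 181 to 201 CPM in MEFs. Gata4, a transcription factor of Sertoli cells, was at 0.0945 CPM in CiSCs, 252 CPM in MSCs and 0.154 CPM in MEFs, and the follicle-stimulating hormone receptor gene Fshr had no reads in CiSCs or MEFs. These 2 single markers do not stand for the list, of which 14 markers had a count in CiSCs, 15 in MSCs and 13 in MEFs. Of 13 tested Sertoli cell markers, 5 were called higher in CiSCs against MEFs, and 0 were lower by edgeR, at an unadjusted p under 0.05 or by DESeq2. The share called higher was 38.5%, beside 19.6% of all tested genes. In CiSCs against MSCs, 1 Sertoli marker was called higher and 10 lower (7.69% and 76.9%, beside 17.7% and 25.1% of all tested genes). Median log2 fold changes of these markers in CiSCs were 1.78 against MEFs and -3.32 against MSCs. A sum weighs abundant markers most, so it does not show how many markers differed. In bulk RNA, fewer cells of a type and less RNA per cell cannot be told apart.

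Gsta3, Gsta4, Gstm1, Gstm2, Gstm6 and Gstt1 were highest in MSCs, Gstm5 lay at similar levels in all groups, Gstp1 overlapped between CiSCs and MSCs, and Gsto1 was highest in MEFs. All members together summed to 421 ± 52.6 CPM in CiSCs, 2362 ± 229 CPM in MSCs and 738 ± 80.7 CPM in MEFs (SD, n = 2 each). Of the 10 members, 9 passed the filter on low counts and Gstm3 did not. In CiSCs against MEFs, 2 of the 9 were called higher (Gsta4, Gstp1), 3 lower (Gstm2, Gstm6, Gsto1) and 4 were not called, where 40.9% of all tested genes were called. In MSCs against MEFs, 7 were called higher and Gsto1 lower, with 42.5% of all genes called. In CiSCs against MSCs, Gsto1 was called higher and 6 members lower, with 42.8% of all genes called. Since the members were picked with these contrasts known, nothing is read from these counts.

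**Figure D1:**
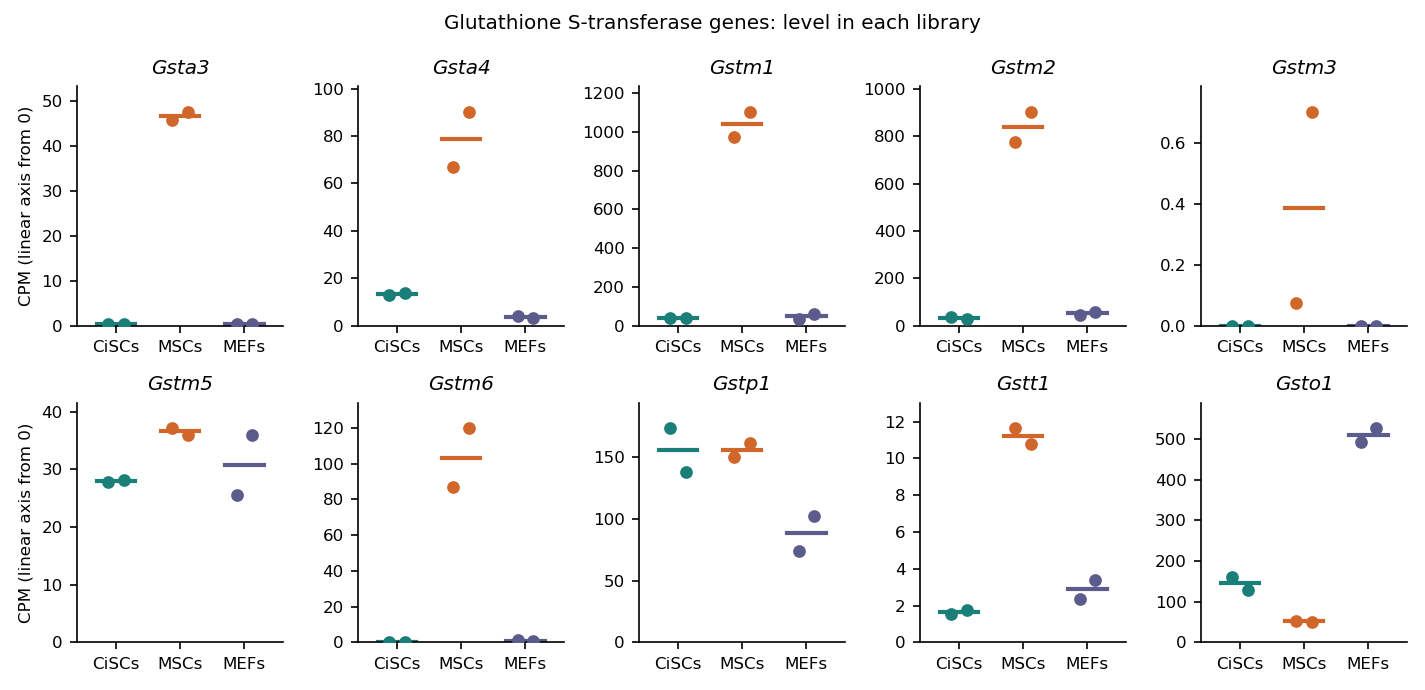
Level of each glutathione S-transferase gene in each library, in CPM on linear axes from 0 with a separate scale for each gene; points are the 2 libraries of a group and the line is their mean. Gsta3, Gsta4, Gstm1, Gstm2, Gstm6 and Gstt1 stand highest in MSCs and Gsto1 in MEFs, while the Gstp1 points of CiSCs and MSCs overlap.

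The mu class held most of the difference between MSCs and the other groups, while Gsto1 held the largest CPM difference between CiSCs and MEFs. The 5 mu members summed to 104 ± 4.86 CPM in CiSCs, 2018 ± 205 CPM in MSCs and 133 ± 36.3 CPM in MEFs (SD, n = 2 each), a ratio of 15.1 for MSCs over MEFs. This sum does not depend on how reads were divided among these 5 genes, and with Gstm4 and Gstm7 added the ratio was 14.7. Gstm1 (Entrez Gene 14862, chromosome 3), a main mu enzyme of liver and other tissues, was at 42.9 and 42.7 CPM in CiSCs, 975 and 1103 CPM in MSCs and 35.4 and 62.7 CPM in MEFs. Both MSC libraries lay far above all others, while the CiSC libraries fell between the 2 MEF libraries. The log2 fold change of Gstm1 was -0.20 ± 0.26 for CiSCs against MEFs and 4.40 ± 0.30 for MSCs against MEFs, a 21.2-fold level. Without the second MEF library the CiSC value turned to 0.27, so its sign was set by 1 library.

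Gstm2 (Entrez Gene 14863), a neighbouring mu enzyme, was at 36.9 and 30.03 CPM in CiSCs, 774 and 903 CPM in MSCs and 45.5 and 59.6 CPM in MEFs. Here the groups did not overlap, and CiSCs were the lowest. Its log2 fold change was -0.65 ± 0.19 for CiSCs against MEFs, 3.99 ± 0.21 for MSCs against MEFs and -4.65 ± 0.22 for CiSCs against MSCs. The count ratio of Gstm1 to Gstm2 was 1.16 and 1.42 in CiSCs, 1.26 and 1.22 in MSCs and 0.778 and 1.05 in MEFs.

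Gstm6 (Entrez Gene 14867), another mu enzyme, had the widest range among the members. It was at 0.143 and 0.129 CPM in CiSCs, 86.8 and 119.8 CPM in MSCs and 1.11 and 0.572 CPM in MEFs. The CiSC libraries held 3 and 2.75 expected counts, so the low end of this range rests on few reads. The log2 fold change was -2.52 ± 0.57 for CiSCs against MEFs and 6.92 ± 0.32 for MSCs against MEFs.

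Gstm5 (Entrez Gene 14866), a mu gene whose protein is known from brain and testis, was the exception. It was at 27.9 and 28.1 CPM in CiSCs, 37.2 and 36.1 CPM in MSCs and 25.5 and 36.0 CPM in MEFs. The CiSC libraries lay between the MEF libraries, and the higher MEF library nearly reached the MSC level. Its log2 fold change was -0.14 ± 0.18 for CiSCs against MEFs, 0.25 ± 0.18 for MSCs against MEFs and -0.39 ± 0.18 for CiSCs against MSCs. The first of these turned to 0.13 without the second MEF library, and the second to -0.01 without the first MEF library. Gstm3 (Entrez Gene 14864) had reads only in MSCs, with 1.39 and 12.93 expected counts and no reads in CiSCs or MEFs. The first MSC library, at 0.0739 CPM, lay below the limit of 0.0769 CPM that no reads allow in MEFs, so no fold is given. With 28.8% of its stretches shared with other genes, these few reads are uncertain.

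The mu genes lie side by side on chromosome 3, and among the tested ones the smallest differences between MSCs and MEFs were at both ends of the run. In the RefSeq gene order of GRCm38 the run from Gstm5 to Gstm4 holds 7 protein-coding genes, all of the mu class, in the order Gstm5, Gstm7, Gstm6, Gstm3, Gstm2, Gstm1, Gstm4. Gstm5, at the first end, is described above. Gstm4, at the last end, was at 8.99 and 8.44 CPM in CiSCs, 15.6 and 16.5 CPM in MSCs and 7.0 and 11.7 CPM in MEFs. Its MSC and MEF libraries did not overlap, and its log2 fold change of 0.78 ± 0.26 for MSCs against MEFs missed the threshold (edgeR adjusted p = 0.0512, with 0.000833 to 0.198 over the alternatives). The tested genes between them had log2 fold changes of 3.99 (Gstm2) to 6.92 (Gstm6). Of these Gstm7 is no member and could be tested. It stood at 0.477 and 0.468 CPM in CiSCs, 71.7 and 93.5 CPM in MSCs and 1.77 and 1.56 CPM in MEFs. Gstm7 rose in MSCs against MEFs by 5.63 ± 0.21 on the log2 scale (edgeR adjusted p = 1.45e-05) and fell in CiSCs against MEFs by 1.80 ± 0.29 (edgeR adjusted p = 0.00339).

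**Figure D2:**
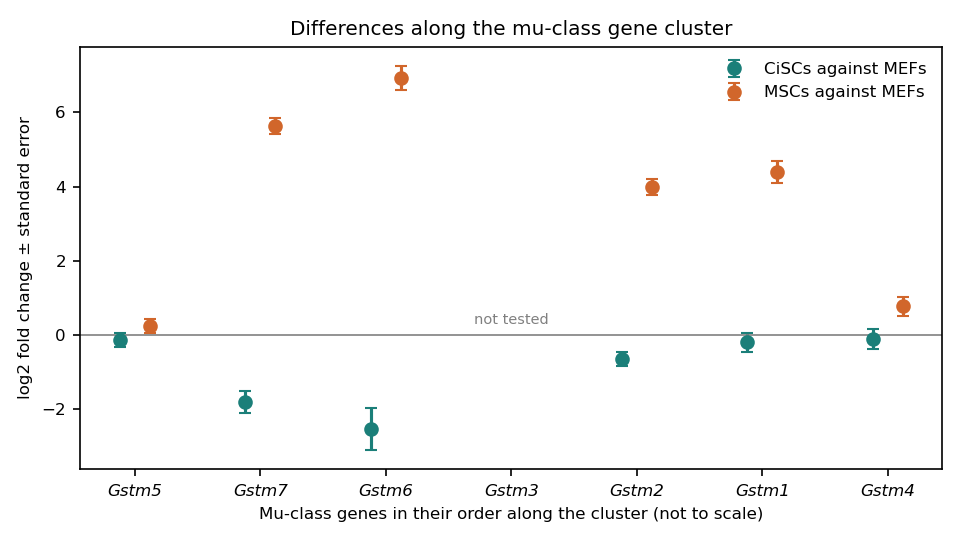
Log2 fold changes, with standard errors as bars, of CiSCs against MEFs and of MSCs against MEFs for the 7 mu genes in their order along chromosome 3; distances are not to scale and Gstm3 was not tested. In MSCs the inner genes lie between 3.99 and 6.92 and the outer genes Gstm5 and Gstm4 at 0.25 and 0.78, while in CiSCs Gstm6 and Gstm7 lie lowest, at -2.52 and -1.80.

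Both alpha members were also high in MSCs, and they differed in CiSCs. Gsta3 (Entrez Gene 14859, chromosome 1), which in mammals acts on electrophiles and, in human, on steroid hormone precursors, was at 0.429 and 0.374 CPM in CiSCs, 45.6 and 47.5 CPM in MSCs and 0.405 and 0.416 CPM in MEFs. CiSCs and MEFs overlapped at 8 or 9 reads a library, and MSCs stood 112-fold above MEFs. The log2 fold change was -0.03 ± 0.29 for CiSCs against MEFs, with 0.09 under scaling by library totals alone, and 6.81 ± 0.21 for MSCs against MEFs. Gsta4 (Entrez Gene 14860, chromosome 9), which conjugates 4-hydroxynonenal and similar products of lipid peroxidation, was at 13.2 and 13.7 CPM in CiSCs, 67.0 and 90.2 CPM in MSCs and 4.0 and 3.43 CPM in MEFs. The 3 groups did not overlap and CiSCs lay between the others. Its log2 fold change was 1.85 ± 0.20 for CiSCs against MEFs, 4.40 ± 0.21 for MSCs against MEFs and -2.55 ± 0.19 for CiSCs against MSCs. Among the members this order, without overlap and with MSCs on top, was seen in Gsta4 alone. The order is not particular to Gsta4, since group means of Gpx3 and Ggt5, described below, had it too. How many of all genes share it was not counted.

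Gstp1 (Entrez Gene 14870, chromosome 19), the pi enzyme that is abundant in many cultured and tumour cells and that also binds the stress kinase JNK, was at 174 and 138 CPM in CiSCs, 150.2 and 162 CPM in MSCs and 74.2 and 102 CPM in MEFs. The MSC libraries lay between the CiSC libraries, and the MEF libraries were lower than all 4. Its log2 fold change was 0.82 ± 0.20 for CiSCs against MEFs, 0.82 ± 0.20 for MSCs against MEFs and 0.00 ± 0.20 for CiSCs against MSCs. These first 2 contrasts share the MEF libraries. With the Gstp2 reads added, the sums were 156 ± 25.2 CPM in CiSCs, 159 ± 7.80 CPM in MSCs and 88.3 ± 19.9 CPM in MEFs (SD, n = 2 each).

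Gstt1 (Entrez Gene 14871, chromosome 10), a theta enzyme that handles small halogenated compounds, was at 1.53 and 1.78 CPM in CiSCs, 11.6 and 10.8 CPM in MSCs and 2.38 and 3.38 CPM in MEFs. CiSCs were the lowest group, with log2 fold changes of -0.80 ± 0.27 against MEFs and -2.76 ± 0.26 against MSCs.

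Gsto1 (Entrez Gene 14873, chromosome 19), the omega enzyme with thioltransferase and dehydroascorbate reductase activity that also takes part in release of interleukin-1 beta, ran the other way. It was at 162 and 129 CPM in CiSCs, 52.6 and 51.2 CPM in MSCs and 493 and 527 CPM in MEFs. The groups did not overlap, with MEFs highest and MSCs lowest. Its log2 fold change was -1.81 ± 0.15 for CiSCs against MEFs, -3.30 ± 0.16 for MSCs against MEFs and 1.48 ± 0.15 for CiSCs against MSCs. The macrophage and leukocyte markers were likewise highest in MEFs, but lowest in CiSCs (34.5 to 50.03 CPM) and not in MSCs (1324 to 1403 CPM), and their part in the result was not tested. The high levels of the mu and alpha members in MSCs stood beside Sertoli cell marker sums of 6318 to 9299 CPM and Leydig marker sums of 2185 to 2190 CPM. Endothelial, germ cell and peritubular marker sums were also highest in MSCs. The 6 peritubular and smooth muscle markers summed to 1754 to 1958 CPM in CiSCs, 4175 to 4427 CPM in MSCs and 3539.6 to 3852 CPM in MEFs. Sums of 8 fibroblast markers were highest in MSCs too, at 38235.5 to 41035.9 CPM. They were 26427 to 26777.5 CPM in CiSCs and 19187.3 to 20585 CPM in MEFs. In MSCs against MEFs, 22.5% of all tested genes were called higher and 20.0% lower. Called higher there were 12 of 13 tested Sertoli, 7 of 7 Leydig, 6 of 7 endothelial and 3 of 3 germ cell markers. So were 3 of 6 peritubular and 3 of 8 fibroblast markers, while 1 endothelial and 2 fibroblast markers were called lower. The part of these markers was likewise not tested.

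To compare genes with each other, CPM was divided by transcript length in kilobases. On this scale the make-up of the members differed between the groups and little between libraries of a group. In CiSCs, Gstp1 took 45.9% and 43.8% of the members' summed CPM per kilobase, and Gsto1 29.7% and 28.3%. In MSCs, Gstm1 took 39.1% and 38.5% and Gstm2 37.5% and 38.2%, with Gstp1 at 9.45% and 8.86%. In MEFs, Gsto1 took 68.1% and 61.8%, and Gstp1 14.8% and 17.3%. The leading gene was a pi gene in CiSCs, one of 2 mu genes at close levels in MSCs and an omega gene in MEFs. In CiSCs the next levels per kilobase were 33.2 for Gstm1, 31.4 for Gstm2 and 29.6 for Gstm5, which are close together, while Gsta4 reached 13.8, Gstt1 1.59, Gsta3 0.276 and Gstm6 0.118.

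**Figure D3:**
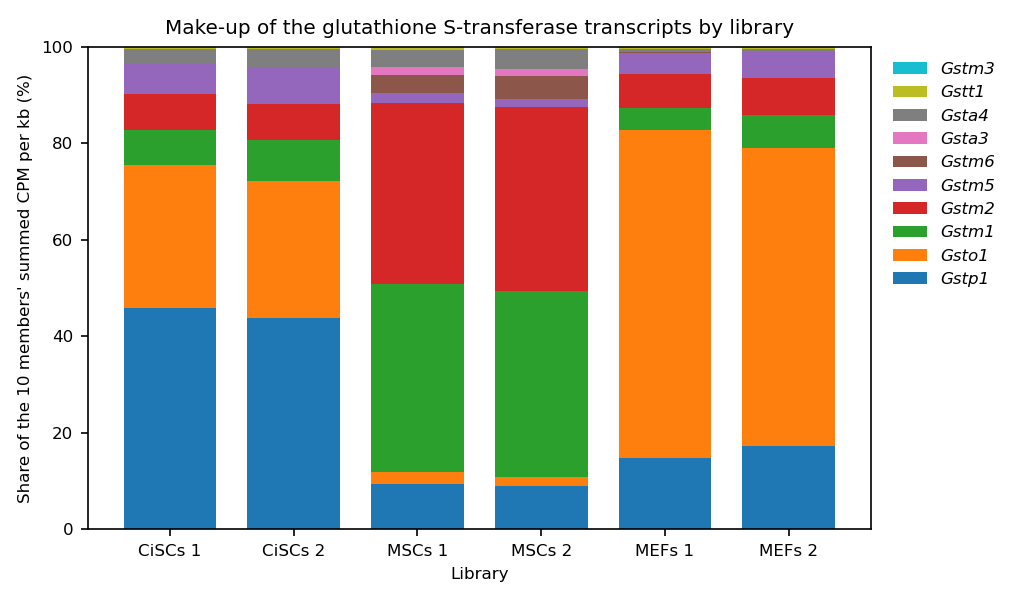
Share of each member in the summed CPM per kilobase of the 10 genes, in percent, as stacked bars for the 6 libraries in the order CiSCs, MSCs, MEFs. Gstp1 leads in both CiSC libraries (45.9% and 43.8%), Gstm1 and Gstm2 in both MSC libraries, and Gsto1 in both MEF libraries (68.1% and 61.8%).

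The genes most like the most abundant members were found by the Euclidean distance between centred log2 CPM profiles over the 6 libraries, among tested genes with at least 10 CPM in a group. For Gstm2 the nearest were Dio3, which inactivates thyroid hormone (distance 0.330), and Mgst1, the microsomal glutathione S-transferase (0.330). For Gstm1 they were Selenbp1, a selenium-binding protein gene (0.474), and Chchd10, which encodes a mitochondrial protein (0.496). Chchd10 averaged 17.0 ± 0.769 CPM in CiSCs, 393 ± 44.0 CPM in MSCs and 25.6 ± 11.1 CPM in MEFs (SD, n = 2 each). For Gsto1 they were Il1rn, the interleukin-1 receptor antagonist (0.474), and Itga11, a collagen-binding integrin subunit (0.537). Il1rn averaged 28.3 ± 5.70 CPM in CiSCs, 12.5 ± 0.204 CPM in MSCs and 93.7 ± 17.2 CPM in MEFs (SD, n = 2 each).

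Other genes of the family and of related membrane enzymes could be tested. Of 22 listed genes 20 were found and 16 tested. In CiSCs against MEFs, 4 rose (19.6% of all tested genes were called higher) and 8 fell (21.3% of all tested genes were called lower), with a median log2 fold change of -0.88, beside -0.00 for all tested genes. In MSCs against MEFs, 6 rose and 5 fell (22.5% and 20.0% of all tested genes), with a median of 0.49 beside 0.01. In CiSCs against MSCs none rose by edgeR and 9 fell (17.7% and 25.1% of all tested genes), with a median of -1.08 beside -0.03. At an unadjusted p under 0.05, 2 were higher there, and DESeq2 called 1 higher.

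Mgst1, a microsomal transferase and peroxidase, followed the mu pattern. It was at 15.4 and 13.5 CPM in CiSCs, 298 and 305 CPM in MSCs and 17.3 and 21.6 CPM in MEFs, and it rose in MSCs against MEFs by 3.95 ± 0.17 on the log2 scale (edgeR adjusted p = 1.9e-05). In CiSCs its difference from MEFs, -0.43 ± 0.16, did not pass (edgeR adjusted p = 0.0705). Gstt2, a theta enzyme, was at 1.84 and 2.18 CPM in CiSCs, 9.73 and 11.4 CPM in MSCs and 4.32 and 5.47 CPM in MEFs, which is the order of Gstt1. It fell in CiSCs against MEFs by 1.28 ± 0.25 (edgeR adjusted p = 0.00728) and rose in MSCs against MEFs by 1.11 ± 0.23 (edgeR adjusted p = 0.0089). Gstt3 did not pass in any comparison. Gsto2 lay with its neighbour Gsto1 in being highest in MEFs, at 1.24 and 0.561 CPM in CiSCs, 0.744 and 0.761 CPM in MSCs and 10.8 and 11.2 CPM in MEFs. Unlike Gsto1, its CiSC libraries lay on both sides of the MSC libraries. Gstp2 had no reads in MEFs and was called in both comparisons with MEFs, at least 6.20-fold higher in CiSCs and at least 35.1-fold higher in MSCs, subject to the division of reads with Gstp1.

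Alox5ap, Hpgds, Ltc4s and Mgst3 fell in both CiSCs and MSCs against MEFs. Alox5ap, the 5-lipoxygenase activating protein gene of leukocytes, was at 0.429 and 0.281 CPM in CiSCs, 19.9 and 16.03 CPM in MSCs and 123 and 219 CPM in MEFs, a log2 fold change of -8.89 ± 0.45 for CiSCs against MEFs (edgeR adjusted p = 3.16e-05). Hpgds, the haematopoietic prostaglandin D synthase of the sigma class, was at 0.622 and 0.555 CPM in CiSCs, 6.28 and 4.96 CPM in MSCs and 46.6 and 85.4 CPM in MEFs, a log2 fold change of -6.79 ± 0.41 (edgeR adjusted p = 5.98e-05). These orders are those of the macrophage and leukocyte marker sums, 34.5 to 50.03 CPM in CiSCs, 1324 to 1403 CPM in MSCs and 11885 to 19350 CPM in MEFs, whose part was not tested. Ltc4s, the leukotriene C4 synthase, averaged 2.98 ± 0.576 CPM in CiSCs, 1.19 ± 0.550 CPM in MSCs and 9.40 ± 4.21 CPM in MEFs (SD, n = 2 each). Mgst3, another microsomal enzyme, was at 6.82 and 5.80 CPM in CiSCs, 6.86 and 6.90 CPM in MSCs and 22.8 and 34.6 CPM in MEFs. Gstk1, the mitochondrial and peroxisomal kappa enzyme, fell in CiSCs against MEFs by 2.12 ± 0.32 (edgeR adjusted p = 0.00269) and averaged 2.15 ± 0.598 CPM in CiSCs, 5.22 ± 0.459 CPM in MSCs and 9.36 ± 2.86 CPM in MEFs (SD, n = 2 each). Gstz1 of tyrosine breakdown rose in both, averaging 21.4 ± 2.68 CPM in CiSCs, 20.3 ± 1.59 CPM in MSCs and 12.7 ± 0.529 CPM in MEFs (SD, n = 2 each). Of the rest, Mgst2 and Gstcd rose in CiSCs against MEFs, and Ptges, a prostaglandin E synthase, rose in MSCs against MEFs. Some of these calls were lost without 1 library. Against MEFs, the CiSC calls of Gstt2 and Gstz1 were lost without the first CiSC library, that of Gstcd without the second, that of Ltc4s without either, and that of Mgst2 without the first CiSC library or either MSC library. The MSC calls against MEFs were lost for Gstt2 without the second MSC library and for Gstz1 without either.

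**Figure D4:**
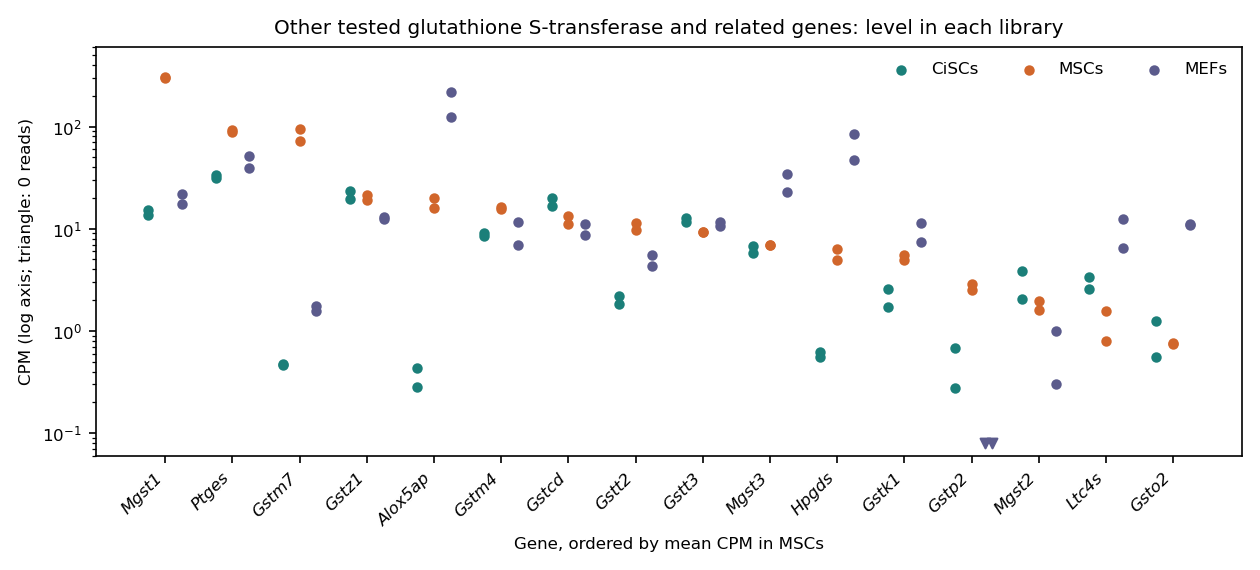
Level of the other 16 tested family genes in each library, in CPM on a log axis, ordered by mean level in MSCs; triangles mark libraries without reads. Mgst1 and Gstm7 stand highest in MSCs, while Alox5ap, Hpgds, Mgst3 and Gsto2 stand highest in MEFs.

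Glutathione itself is made from cysteine, glutamate and glycine, is kept reduced by glutathione reductase, and is split outside the cell. Of 18 tested genes for synthesis, recycling and breakdown, 3 rose and 8 fell in CiSCs against MEFs, 5 rose and 4 fell in MSCs against MEFs, and 2 rose and 10 fell in CiSCs against MSCs. The shares that rose and fell were 16.7% and 44.4% in CiSCs against MEFs (19.6% and 21.3% of all tested genes), 27.8% and 22.2% in MSCs against MEFs (22.5% and 20.0%), and 11.1% and 55.6% in CiSCs against MSCs (17.7% and 25.1%). In MSCs against MEFs both shares are near those of all genes, which is no result about the list. Gsr, glutathione reductase, was highest in CiSCs, at 94.8 ± 2.65 CPM in CiSCs, 38.5 ± 0.472 CPM in MSCs and 27.2 ± 7.09 CPM in MEFs (SD, n = 2 each). It rose in CiSCs against MEFs by 1.80 ± 0.20 on the log2 scale (edgeR adjusted p = 0.000672), and in CiSCs against MSCs by 1.30 ± 0.19 (edgeR adjusted p = 0.00216). Gclc, the catalytic subunit of the rate-limiting ligase, averaged 36.8 ± 0.508 CPM in CiSCs, 51.5 ± 0.593 CPM in MSCs and 37.0 ± 3.25 CPM in MEFs (SD, n = 2 each). It did not pass in CiSCs against MEFs (-0.01 ± 0.13, edgeR adjusted p = 0.965), rose in MSCs against MEFs by 0.48 ± 0.13 (edgeR adjusted p = 0.0265) and fell in CiSCs against MSCs by 0.49 ± 0.13 (edgeR adjusted p = 0.0239). Gss, which adds the last amino acid, averaged 31.3 ± 1.20 CPM in CiSCs, 15.1 ± 0.534 CPM in MSCs and 21.9 ± 0.676 CPM in MEFs (SD, n = 2 each). It rose in CiSCs against MEFs by 0.51 ± 0.13 (edgeR adjusted p = 0.0199), fell in MSCs against MEFs by 0.53 ± 0.13 (edgeR adjusted p = 0.0179) and rose in CiSCs against MSCs by 1.05 ± 0.13 (edgeR adjusted p = 0.00099). Both calls of Gclc, and the CiSC call of Gss against MEFs, were lost without any 1 of the CiSC or MSC libraries, and the MSC call of Gss against MEFs without the first CiSC library or either MSC library. Slc7a11, the cystine transporter, fell in CiSCs against MEFs by 1.86 ± 0.32 (edgeR adjusted p = 0.00442). Dpep2, a dipeptidase that splits leukotriene D4, averaged 0.401 ± 0.0279 CPM in CiSCs, 25.1 ± 0.686 CPM in MSCs and 56.9 ± 21.8 CPM in MEFs (SD, n = 2 each) and fell in CiSCs against MEFs by 7.12 ± 0.39 (edgeR adjusted p = 4.02e-05). Chac1, a cytosolic enzyme that degrades glutathione, fell there by 1.79 ± 0.17 (edgeR adjusted p = 0.000351). Anpep, aminopeptidase N, fell by 2.44 ± 0.22 in CiSCs against MEFs (edgeR adjusted p = 0.000316). The largest differences of MSCs from MEFs in this list were in 2 enzymes that split glutathione or its conjugates. Dpep1, a membrane dipeptidase, averaged 0.757 ± 0.211 CPM in CiSCs, 293 ± 6.63 CPM in MSCs and 5.08 ± 0.533 CPM in MEFs (SD, n = 2 each). It rose in MSCs against MEFs by 5.85 ± 0.19 (edgeR adjusted p = 1.1e-05) and fell in CiSCs against MEFs by 2.74 ± 0.22 (edgeR adjusted p = 0.000192). Ggt5, a gamma-glutamyl transferase that acts on glutathione conjugates such as leukotriene C4, averaged 3.51 ± 1.52 CPM in CiSCs, 79.4 ± 4.06 CPM in MSCs and 0.79 ± 0.529 CPM in MEFs (SD, n = 2 each). It rose in both against MEFs, by 2.14 ± 0.48 in CiSCs (edgeR adjusted p = 0.0129) and by 6.63 ± 0.45 in MSCs (edgeR adjusted p = 9.97e-05), although the CiSC call was lost without the second CiSC library.

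Of 13 tested peroxidase, glutaredoxin and glyoxalase genes, 1 rose and 2 fell in CiSCs against MEFs, 3 rose and 1 fell in MSCs against MEFs, and 1 rose and 4 fell in CiSCs against MSCs. The shares that rose and fell were 7.69% and 15.4% in CiSCs against MEFs (19.6% and 21.3% of all tested genes), 23.1% and 7.69% in MSCs against MEFs (22.5% and 20.0%), and 7.69% and 30.8% in CiSCs against MSCs (17.7% and 25.1%), with list medians of -0.08, 0.08 and -0.09. Gpx3, the secreted glutathione peroxidase, averaged 134 ± 25.3 CPM in CiSCs, 1614 ± 201 CPM in MSCs and 48.7 ± 1.96 CPM in MEFs (SD, n = 2 each). It rose in CiSCs against MEFs by 1.46 ± 0.18 (edgeR adjusted p = 0.00124) and in MSCs against MEFs by 5.05 ± 0.21 (edgeR adjusted p = 1.85e-05). Glrx, the cytosolic glutaredoxin, averaged 14.6 ± 1.27 CPM in CiSCs, 127 ± 8.08 CPM in MSCs and 119.7 ± 6.01 CPM in MEFs (SD, n = 2 each), and it fell in CiSCs against MEFs by 3.04 ± 0.14 (edgeR adjusted p = 2.5e-05). Of 6 tested exporters of conjugates, 2 rose and 3 fell in CiSCs against MEFs (19.6% and 21.3% of all tested genes). In MSCs against MEFs 0 rose and 1, Abcc3, fell by edgeR (22.5% and 20.0% of all tested genes). There 0 were higher at an unadjusted p under 0.05 or by DESeq2. In CiSCs against MSCs, 1 exporter rose and 2 fell (17.7% and 25.1% of all tested genes). The share of exporters that rose in CiSCs against MSCs is near that of all genes, which is no result about the list. Abcc3, a multidrug resistance pump, averaged 3.23 ± 0.323 CPM in CiSCs, 22.9 ± 1.60 CPM in MSCs and 67.5 ± 3.08 CPM in MEFs (SD, n = 2 each). Over these lists and the other family genes together, 53 genes were tested. In CiSCs against MEFs 10 rose and 21 fell, in MSCs against MEFs 14 rose and 11 fell, and in CiSCs against MSCs 4 rose and 25 fell. The shares that rose and fell were 18.9% and 39.6%, 26.4% and 20.8%, and 7.55% and 47.2%, beside the shares of all tested genes above. Those of MSCs against MEFs are near the shares of all genes. Under scaling by library totals alone, 8 of 29 called genes rose in CiSCs against MSCs, in place of 4 of 29.

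**Figure D5:**
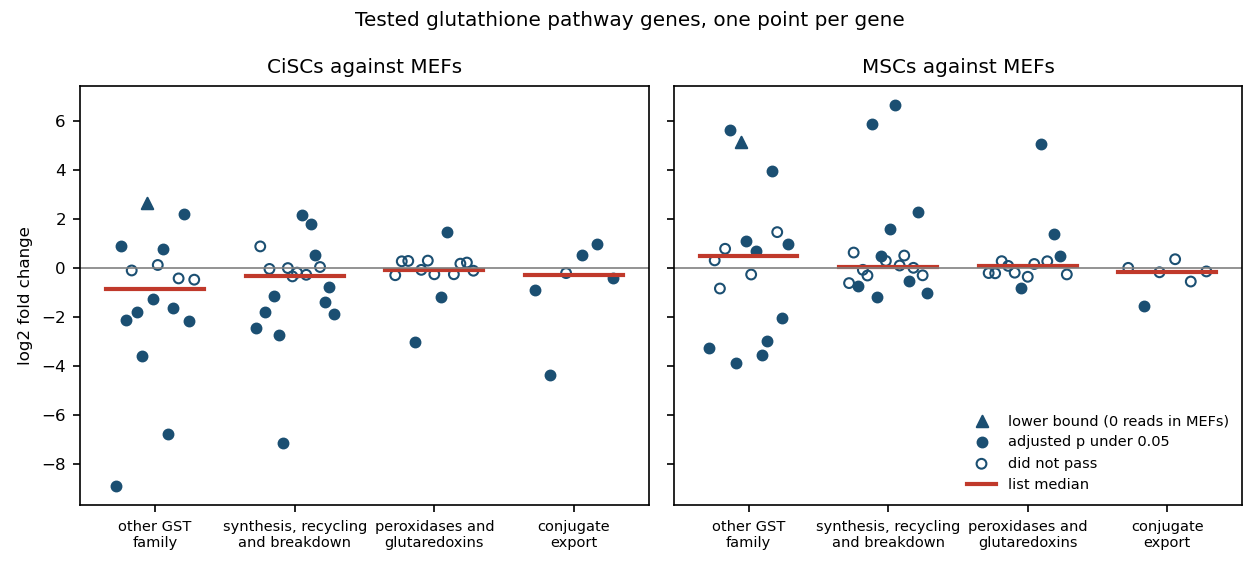
Log2 fold changes of tested glutathione pathway genes in 4 lists, for CiSCs against MEFs (left) and MSCs against MEFs (right); filled points passed an adjusted p of 0.05, open points did not, red lines are list medians and the triangle is the lower bound of Gstp2, which was called. The medians of the other family genes are -0.88 for CiSCs and 0.49 for MSCs, and those of the other lists lie nearer to 0.

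Genes for the regulators and other targets of the same defence system were set beside the members. Of 8 tested NRF2 regulators, none rose and 3 fell in CiSCs against MEFs by edgeR (19.6% and 21.3% of all tested genes). There 0 were higher at an unadjusted p under 0.05 or by DESeq2. In MSCs against MEFs 1 rose and 2 fell (22.5% and 20.0% of all tested genes). In CiSCs against MSCs none rose by edgeR and 2 fell (17.7% and 25.1% of all tested genes). At an unadjusted p under 0.05, 1 was higher there, and DESeq2 called 1 higher. The share of these regulators that fell in CiSCs against MSCs is near that of all genes, which is no result about the list. Nfe2l2, which encodes NRF2, averaged 130 ± 9.02 CPM in CiSCs, 190 ± 8.90 CPM in MSCs and 163 ± 39.7 CPM in MEFs (SD, n = 2 each) and did not pass in any comparison. Of 20 tested NRF2 targets outside the family, 1 rose (Gsr) and 11 fell in CiSCs against MEFs, 3 rose and 4 fell in MSCs against MEFs, and 2 rose and 12 fell in CiSCs against MSCs. The share that fell was 55.0% in CiSCs against MEFs (21.3% of all tested genes) and 60.0% in CiSCs against MSCs (25.1%). In MSCs against MEFs 15.0% rose and 20.0% fell (22.5% and 20.0%), and this share that fell is no result about the list. Macrophage and leukocyte marker sums were also lowest in CiSCs, at 34.5 to 50.03 CPM, beside 1324 to 1403 CPM in MSCs and 11885 to 19350 CPM in MEFs. Their part was not tested. Gclc, Gclm, Slc7a11, Gsr and Abcc1 are also counted in the glutathione lists, Prdx1, Srxn1 and Txnrd1 among the genes for peroxide removal and Cbr3 and Ephx1 among those of drug metabolism, so these lists are not separate counts. Fth1, the ferritin heavy chain, averaged 411 ± 3.27 CPM in CiSCs, 1289 ± 48.2 CPM in MSCs and 3525 ± 1348 CPM in MEFs (SD, n = 2 each). Nqo1, a quinone reductase and common NRF2 readout, averaged 5.36 ± 0.586 CPM in CiSCs, 4.06 ± 0.394 CPM in MSCs and 4.92 ± 0.045 CPM in MEFs (SD, n = 2 each), and did not pass in any comparison. Me1, the cytosolic malic enzyme that supplies NADPH, rose in MSCs against MEFs by 3.98 ± 0.19 (edgeR adjusted p = 2.54e-05) and averaged 85.9 ± 0.453 CPM in CiSCs, 1244 ± 37.1 CPM in MSCs and 79.04 ± 15.6 CPM in MEFs (SD, n = 2 each). Of 15 tested genes for removal of peroxide and superoxide, 1 rose and 6 fell in CiSCs against MEFs, 1 rose and 3 fell in MSCs against MEFs, and 3 rose and 5 fell in CiSCs against MSCs. The shares that rose and fell were 6.67% and 40.0% in CiSCs against MEFs (19.6% and 21.3% of all tested genes). They were 6.67% and 20.0% in MSCs against MEFs (22.5% and 20.0%) and 20.0% and 33.3% in CiSCs against MSCs (17.7% and 25.1%). The share that fell in MSCs against MEFs and the share that rose in CiSCs against MSCs are near those of all genes. Neither is a result about the list. The 1 that rose in CiSCs against MEFs was Cat, catalase, by 0.87 ± 0.13 (edgeR adjusted p = 0.00267). Among the 6 that fell, log2 fold changes were -2.62 for Sod3, -2.12 for Prdx5, -1.73 for Sod2 and -1.22 for Prdx1.

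Of 17 tested genes of the aryl hydrocarbon receptor pathway and other drug metabolism, 11 rose and 2 fell in MSCs against MEFs, 4 rose and 4 fell in CiSCs against MEFs, and 1 rose and 9 fell in CiSCs against MSCs. The share that rose in MSCs against MEFs was 64.7% (22.5% of all tested genes), the share that fell in CiSCs against MSCs was 52.9% (25.1%), and in CiSCs against MEFs 23.5% rose and 23.5% fell (19.6% and 21.3%), which is near the shares of all genes. The list medians were -0.09 for CiSCs against MEFs, 0.91 for MSCs against MEFs and -0.90 for CiSCs against MSCs. Aldh1a1, a retinaldehyde dehydrogenase, averaged 0.849 ± 0.189 CPM in CiSCs, 1635 ± 127 CPM in MSCs and 0.945 ± 0.0869 CPM in MEFs (SD, n = 2 each). Ugt1a6a, a glucuronosyltransferase, averaged 10.6 ± 0.189 CPM in CiSCs, 278 ± 9.40 CPM in MSCs and 32.7 ± 1.19 CPM in MEFs (SD, n = 2 each), and it rose in MSCs against MEFs by 3.09 ± 0.13 (edgeR adjusted p = 1.75e-05) and fell in CiSCs against MEFs by 1.62 ± 0.12 (edgeR adjusted p = 0.000152). Ahr, the receptor itself, averaged 7.81 ± 0.99 CPM in CiSCs, 40.8 ± 2.53 CPM in MSCs and 5.49 ± 0.396 CPM in MEFs (SD, n = 2 each), and rose in MSCs against MEFs by 2.89 ± 0.17 (edgeR adjusted p = 5.59e-05). Cyp1b1, a target of the receptor, was instead highest in CiSCs, averaging 587 ± 5.25 CPM in CiSCs, 431 ± 43.4 CPM in MSCs and 135 ± 60.0 CPM in MEFs (SD, n = 2 each). Cyp1b1 rose in CiSCs against MEFs by 2.12 ± 0.30 (edgeR adjusted p = 0.00212) and in MSCs against MEFs by 1.67 ± 0.30 (edgeR adjusted p = 0.00508), and it did not pass in CiSCs against MSCs. Ugt1a6a shares exons with other genes of its locus, so its reads may be divided.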

How the data were processed

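Total RNA libraries of 2 CiSC, 2 MSC and 2 MEF samples had been sequenced on the BGISEQ-500 platform, per the labels' protocols. The authors deposited 1 table of expected counts per library, in which 42.0% to 43.8% of the values are not whole (tolerance 1e-09). HISAT and the build mm9 are named in the submitters' processing notes, and the counting program, annotation and strand are not given in the sources used here. Of 20007 Entrez identifiers, 18891 matched a symbol in a RefSeq table of GRCm38. Gene order and promoter windows are of GRCm38, not of the build of the counts, and no count was assigned by those coordinates.

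Counts were rounded and fitted in R 4.3.3 with edgeR 4.0.16 (filterByExpr, TMM, quasi-likelihood F tests, two-sided, 1 mean per group, all 6 libraries, 3 residual degrees of freedom), after the procedure had been tested on simulated data. Levels are CPM from the counts as deposited and TMM library sizes, and profiles for likeness used log2 CPM with a prior count of 2. DESeq2 1.42.0 was an alternative. Transcripts for length and identity came from the GENCODE annotation of GRCm38, the principal coding transcript per gene, and promoters from RefSeq. Identity was computed on coding sequences with Biopython 1.88 in place of the proteins first planned. The members and gene lists were chosen with earlier results of these data known. Named were, though not every gene the rule takes, the members, tested family genes, up to 4 genes per other list and comparison with the smallest adjusted p, and the 2 nearest profiles of the 3 most abundant members. Gclc, Gss, Slc7a11, Nfe2l2, Nqo1 and Cat fall outside that rule and were chosen after their values were seen. Replicate numbers, which the labels tie to no batch, were not blocked. The alternatives are given in the closing section. No library was left out.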

Additional observations from a re-analysis of the deposited data

How the results depend on the processing

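No called pathway gene or called gene of the other lists changed direction under any alternative that gave it a value. Results are given for CiSCs against MEFs first, then for MSCs against MEFs, and last for CiSCs against MSCs. Of 31, 25 and 29 glutathione pathway genes called, 19, 16 and 20 stayed at an adjusted p under 0.05 under every alternative that gave them a value, and so did 18, 8 and 18 of 25, 24 and 27 called genes of the NRF2, peroxide and drug metabolism lists. The stricter threshold is counted apart. Leaving out 1 library at a time gave 3395 to 9487, 3516 to 9745 and 3910 to 9369 called genes, against 6250, 6497 and 6534, and 22 to 38, 16 to 37 and 21 to 38 pathway genes. The lowest pathway count of MSCs against MEFs, 16, came without the second MSC library. An adjusted p under 0.01 left 3774, 4009 and 4324 genes, and 20 pathway genes in CiSCs against MEFs. DESeq2 called 6330, 6591 and 6525 genes, and 32, 26 and 31 pathway genes. Scaling by library totals alone moved the median of all genes to 0.11, -0.10 and 0.21 on the log2 scale, and of 7452 genes called in CiSCs against MSCs 4241 were higher, in place of 2697 of 6534. With the replicate number as a block, 5468, 5672 and 5814 genes and 29, 22 and 28 pathway genes were called. Deviations of same-numbered libraries correlated at -0.129 (CiSCs and MSCs), -0.215 (CiSCs and MEFs) and 0.138 (MSCs and MEFs). With 1 deviation per group, these values cannot tell whether same-numbered libraries share a batch, and the labels name none. With 2 libraries a group, levels of Gstm3, Gstm6 and Gsta3 outside MSCs rest on few reads. The cause of these differences was not tested.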
